A study of Rattus norvegicus with 5 samples.

Results

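Lung tissue of a tolerant male and a susceptible male rat was compared after acute hypobaric hypoxia, that is, low oxygen at reduced air pressure. The members are all rows of the authors' deposited table that set the tolerant male over the susceptible male, each symbol counted 1 time per locus. They were 135 genes with 134 symbols, of 1911 distinct genes over the 9 tables used. Both libraries were of Sprague Dawley males, an outbred strain, screened for the time to their first gasp under hypobaric hypoxia. The tolerant male came from the group that gasped after more than 45 min and the susceptible male from the group that gasped in less than 5 min. After a week of acclimatization, both were kept for 1 h at the air pressure of 9144 m and at 24 °C. The other libraries used for context were a tolerant female (more than 60 min) and a normal male (15 to 20 min), exposed in the same way, and a normoxic male that was not screened. Each group was 1 library, and the labels do not say whether it held 1 animal or several. Tolerance thus cannot be told apart from the individual, and no difference has a replicate check. Names such as the tolerant male, and the word animal, stand below for the library of that group. The authors computed the folds and the FDR-corrected p-values, which set 1 library against another. The table lists genes only at a fold of at least 2 in either direction and an FDR-corrected p below 0.05. A gene outside it has no value here and is not shown to be unchanged.

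Immediate-early genes are switched on within minutes by sudden stimuli. They encode short-lived transcription factors, such as the AP-1 subunits and the NR4A receptors, and inhibitors that shut the response down again. The lung also holds a large pool of circulating and resident leukocytes, among them B cells, monocytes and neutrophils, whose transcripts are measured together with those of the lung's own cells. Interferon-inducible genes, many of them antiviral, are expressed at a basal level in these cells and are raised together by interferon signalling.

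Immediate-early genes stood on the lower side of the tolerant male, and B cell and interferon-inducible genes on the higher side. Over the susceptible male, the normal male too had 14 of 17 listed immediate-early genes lower per the authors' deposited tables. All 16 listed B and plasma cell loci and 3 interferon genes were higher there. Over the normal male, the tolerant male had 5 immediate-early genes higher and 3 lower, per the same tables. All 8 B and plasma cell loci were lower, and 5 of 6 interferon genes higher. The share over all genes of those comparisons was not computed, so these counts are a description and not a result about the lists. Of the 135 genes, 74 (54.8%) were higher and 61 (45.2%) lower in the tolerant male than in the susceptible male per the authors' deposited table. Those shares are over listed genes, since how many genes the authors tested was not given in the sources used here. Among the higher genes the median fold was 2.65 and among the lower 2.91, and 13 higher and 20 lower genes reached a fold of 4 per the authors' deposited table. Nearest the fold threshold were Csrnp1, 2.00-fold lower, and RT1-CE2, 2.00-fold higher, and nearest the p threshold was Gpr4, with an FDR-corrected p of 0.0499, per the authors' deposited table. In 19 genes the FDR-corrected p was stored as 0 per the authors' deposited table. Named genes that were higher had a median locus span of 19.5 kb and those that were lower one of 10.3 kb, and the part of gene length in the folds was not tested. Depth per library is unknown, since the tables hold no counts. None of the 16 alveolar, 32 airway secretory and 12 ciliated cell symbols looked for was listed, and without levels the lung label could not be checked against them.

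**Figure D1:**
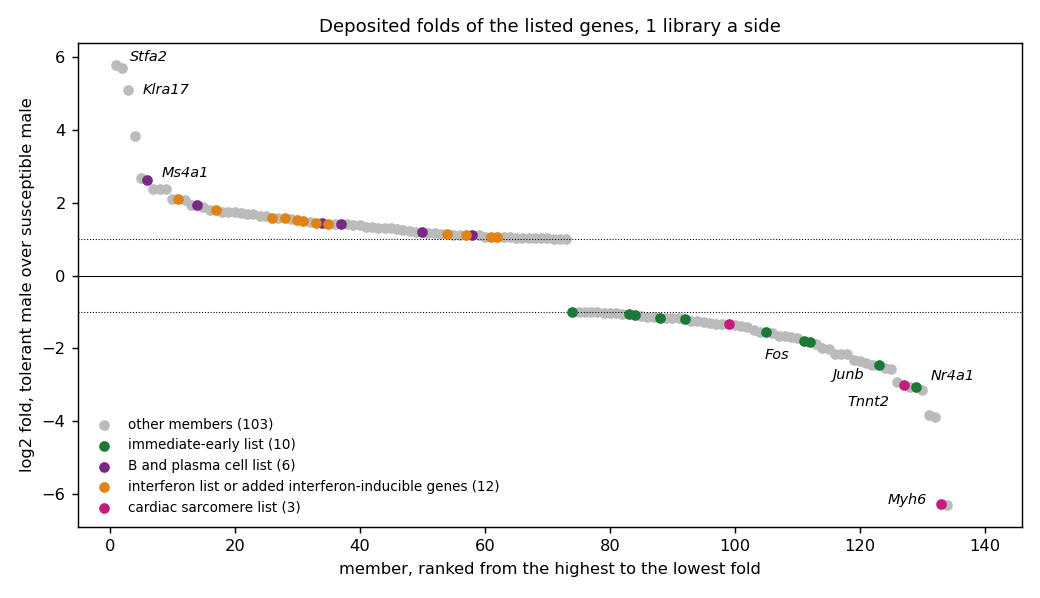
Log2 fold of the tolerant male over the susceptible male (vertical axis) for the 134 genes with a finite fold, ranked from highest to lowest (horizontal axis), with dotted lines at a fold of 2. The 10 immediate-early and 3 cardiac sarcomere genes lie below 0, and the 6 B and plasma cell loci and 12 interferon-inducible genes above it. Dsg3, listed with 0 in the susceptible male, is not drawn.

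All 10 listed members of the 39 immediate-early symbols were lower in the tolerant male, beside 45.2% lower among all listed genes, and their median log2 fold was -1.38 per the authors' deposited table. This list, like the other gene lists used below, was chosen with earlier results of these data known. Nr4a1 and Nr4a3 encode orphan nuclear receptors, Fos, Junb and Jund subunits of the AP-1 transcription factor, and Dusp1 a phosphatase that inactivates MAP kinases. Rgs1 and Rgs2 encode proteins that shorten G protein signalling, Klf2 an endothelial transcription factor induced by flow, and Csrnp1 a nuclear protein induced early by cytokines and growth factors. For 6 of the 10, the RefSeq table of rat promoters (build GRCr8, 250 bases before to 50 after the gene start) had an entry, and stretches of them are shown here because these genes lie on one side together. The letters TGACG are the core of the cyclic AMP response element, through which the factor CREB acts on many immediate-early genes. They were searched on both strands, a choice made after the values were seen, and overlapping matches were kept. The core was present in 6 of 6 of these promoters. It was present in 18 of 46 promoters of lower members (39.1%), which include these 6. It was also in 14 of 55 promoters of higher members (25.5%) and in 21.2% of all 33469 promoters in the table. Capitals mark each match in the stretches, which end before the gene start and read 5′ to 3′ on the gene's strand:
Nr4a1 (chr7:134259888-134260104, plus strand): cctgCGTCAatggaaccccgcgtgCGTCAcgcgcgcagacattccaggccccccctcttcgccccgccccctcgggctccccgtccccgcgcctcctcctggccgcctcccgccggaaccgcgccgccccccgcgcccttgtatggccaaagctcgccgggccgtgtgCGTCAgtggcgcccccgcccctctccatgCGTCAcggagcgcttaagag
Junb (chr19:40080956-40080990, plus strand): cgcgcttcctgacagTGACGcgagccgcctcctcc
Dusp1 (chr10:17184666-17184751, plus strand): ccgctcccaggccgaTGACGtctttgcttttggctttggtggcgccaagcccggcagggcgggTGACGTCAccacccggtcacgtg
Jund (chr16:18769850-18770007, minus strand): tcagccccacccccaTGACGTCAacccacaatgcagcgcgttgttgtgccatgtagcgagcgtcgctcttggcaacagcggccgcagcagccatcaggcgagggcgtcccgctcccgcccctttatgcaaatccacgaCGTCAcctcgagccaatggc
Rgs1 (chr13:58573293-58573327, minus strand): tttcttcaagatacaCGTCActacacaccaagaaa
Rgs2 (chr13:58352863-58352897, minus strand): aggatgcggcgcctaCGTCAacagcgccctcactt
Nr4a1 carried 4 separate cores upstream of its start, and Dusp1 and Jund each had overlapping cores on both strands, which spell the full palindrome. A match describes the letters and does not show that a factor binds there.

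Levels in the other libraries were read relative to the normoxic male, on the log2 scale, from the authors' deposited tables or, where no table listed the pair, as the difference of deposited log2 folds over a shared library. Such a level could be had for both animals in 83 of the 135 genes. Nr4a1 (chromosome 7, 140004121 to 140020698 as the authors' tables give it, on a build that is not named) had a log2 level of -0.58 in the tolerant male and 2.48 in the susceptible male. Its log2 level was -0.92 in the normal male and 0.39 in the tolerant female. The susceptible male was thus the high library, while the other exposed animals lay within 1 of the normoxic male on this scale. Nr4a1 was 8.34-fold lower in the tolerant than in the susceptible male, with an FDR-corrected p stored as 0, per the authors' deposited table.

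Junb (chromosome 19, 24825677 to 24833320) followed at 5.48-fold lower in the tolerant male, with an FDR-corrected p stored as 0, per the authors' deposited table. Its log2 level was -0.46 in the tolerant male and 2.00 in the susceptible male, with 0.39 in the normal male, and the tolerant female could not be placed. Of these 3 libraries, the susceptible male was the one more than 1 above normoxia. Jund, the third AP-1 subunit gene listed, was 2.11-fold lower (FDR-corrected p = 1.24e-12) per the authors' deposited table, at log2 levels of -0.04 in the tolerant and 1.04 in the susceptible male. Fos (chromosome 6, 109559133 to 109562529) was 3.46-fold lower, with an FDR-corrected p of 1.24e-12, per the authors' deposited table. Unlike Junb, it had a log2 level above normoxia in the tolerant male too, 1.28, against 3.07 in the susceptible male, with 2.11 in the tolerant female and -0.75 in the normal male. Nr4a3 was high in every exposed library, at log2 levels of 3.72 in the tolerant male, 5.28 in the susceptible male, and 4.33 in both the normal male and the tolerant female. The gap between the animals of this comparison was 2.95-fold (FDR-corrected p = 0.000245) per the authors' deposited table.

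The inhibitors of signalling on the list lay lower in the same library. Rgs1 was 3.57-fold (FDR-corrected p = 0.000218), Dusp1 2.29-fold (stored as 0) and Rgs2 2.22-fold (0.000111) lower in the tolerant male per the authors' deposited table. Rgs1 stood at a log2 level of 1.00 in the tolerant and 2.84 in the susceptible male, and Dusp1 at 0.46 in the tolerant and 1.66 in the susceptible male. Rgs2 lay at 0.10 in the tolerant male, 0.07 in the normal male and 0.02 in the tolerant female, against 1.25 in the susceptible male, so the susceptible library alone was more than 1 above normoxia. Klf2 was 2.09-fold and Csrnp1 2.00-fold lower in the tolerant male per the authors' deposited table.

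**Figure D2:**
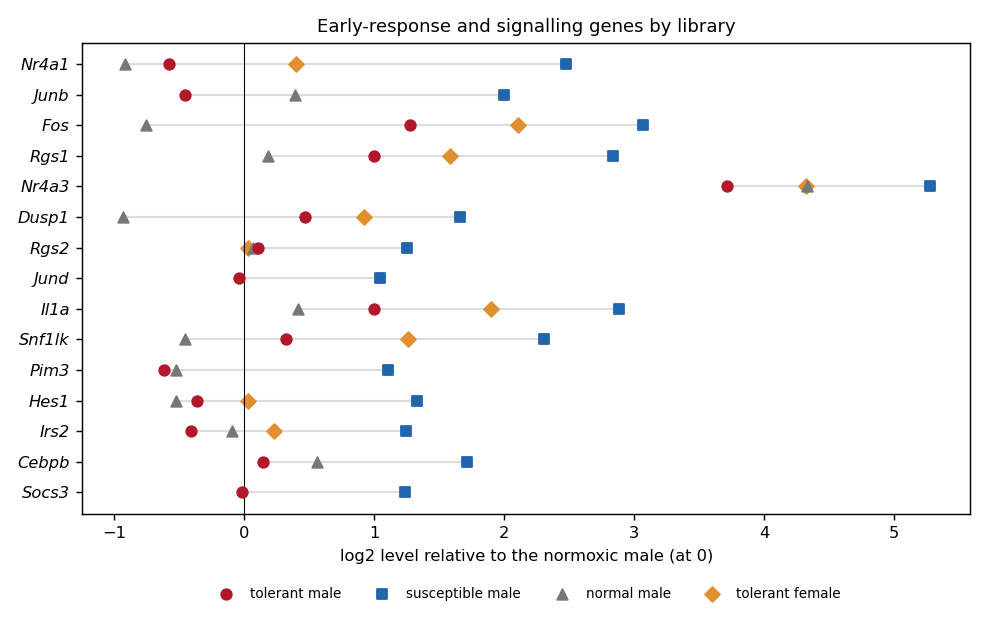
Log2 level relative to the normoxic male (horizontal axis, normoxic male at 0) of 15 early-response and signalling genes (rows), with 1 point per library. The susceptible male is the rightmost point in each row, and the tolerant male lies between -0.62 and 1.28 except for Nr4a3, at 3.72. Libraries without a point had no deposited or derivable value.

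A further 10 signalling genes, grouped after their values were seen, were all lower in the tolerant male, by 2.22-fold to 5.08-fold, beside 45.2% lower among all listed genes, per the authors' deposited table. Since the values chose this group, its direction is a description. Signalling genes outside it lay on both sides. Map3k4 was 2.07-fold and Plk2 2.03-fold higher, and Rgs1 3.57-fold and Dusp1 2.29-fold lower, per the authors' deposited table. Among the 10, Dusp9, another MAP kinase phosphatase, was 5.08-fold lower (FDR-corrected p = 0.00631) per the authors' deposited table. Snf1lk, which encodes the salt-inducible kinase SIK1, was 3.98-fold lower (stored as 0) per the authors' deposited table. Dusp9 had a log2 level of 0.55 in the tolerant male and 2.89 in the susceptible male, and Snf1lk one of 0.32 in the tolerant male and 2.31 in the susceptible male. Pim3, a growth-promoting kinase, was 3.30-fold, Hes1, a Notch target that represses transcription, 3.24-fold, and Irs2, an adaptor of insulin receptor signalling, 3.15-fold lower per the authors' deposited table. All 3 were slightly under normoxia in the tolerant male, at log2 levels of -0.62, -0.36 and -0.41, and above it in the susceptible male, at 1.10, 1.33 and 1.24. Cebpb, a transcription factor of the acute-phase response, was 2.97-fold lower (stored as 0) and Socs3, which blocks cytokine signalling through STAT3, 2.39-fold lower (FDR-corrected p = 0.000219) per the authors' deposited table. Both were close to normoxia in the tolerant male, with log2 levels of 0.14 and -0.02, against 1.71 and 1.24 in the susceptible male. Il1a, which encodes the alarm cytokine interleukin 1 alpha, was 3.69-fold lower (FDR-corrected p = 4.05e-07) per the authors' deposited table, and was the only listed member of 37 inflammatory cytokine and sensing symbols. Its log2 level was 1.00 in the tolerant male and 2.88 in the susceptible male, with 0.42 in the normal male and 1.90 in the tolerant female. Gem, Map3k8 and Id3 were 2.50-, 2.23- and 2.22-fold lower per the authors' deposited table. Id3, an inhibitor of basic helix-loop-helix factors, differed from the others in its levels, since it lay under normoxia in both animals, at -1.62 in the tolerant male and -0.47 in the susceptible male, with -0.33 in the normal male and -1.75 in the tolerant female. Gem had a log2 level of 1.04 in the tolerant male and 2.36 in the susceptible male, and Map3k8 one of 0.41 in the tolerant male and 1.56 in the susceptible male.

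Stress-linked lists held few members here. Of 25 feedback and growth-arrest symbols, Ddit4, an inhibitor of mTOR signalling, and Socs3 were lower and Plk2, a kinase of the stress response, was 2.03-fold higher per the authors' deposited table. Of 21 glucocorticoid-response symbols, Zbtb16, a transcription factor induced by glucocorticoids, was 3.23-fold higher (FDR-corrected p = 6.71e-13), while Ddit4, Dusp1 and Cebpb, which are on other lists as well, were lower per the authors' deposited table. Zbtb16 had a log2 level of 0.94 in the tolerant male, against -0.75 in the susceptible male, with 0.73 in the normal male and 1.38 in the tolerant female. Txnip, which limits glucose uptake and binds thioredoxin, was 2.60-fold lower (stored as 0) and the sole listed member of 33 HIF and glycolysis symbols per the authors' deposited table. No member of the 18 clock, 27 stress protein and 23 coagulation symbols was listed.

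All 6 listed loci of the B and plasma cell list, which make up 5 of its 33 symbols, were higher in the tolerant male, beside 54.8% higher among all listed genes, with a median log2 fold of 1.43 per the authors' deposited table. Ms4a1, which encodes the B cell surface protein CD20 (chromosome 1, 213763622 to 213770756), was 6.13-fold higher (FDR-corrected p = 0.00913) per the authors' deposited table. Cd79b and Cd79a, the signalling chains of the B cell receptor, were 3.86-fold (0.0103) and 2.65-fold higher (0.0128) per the authors' deposited table. Against the normoxic male, Ms4a1 had a log2 level of -0.43 in the tolerant male, -3.05 in the susceptible male, -0.13 in the normal male and -2.88 in the tolerant female. The libraries thus fell apart into the normoxic, normal and tolerant males on the higher side and the susceptible male and tolerant female on the lower side. Cd79b repeated this order, with log2 levels of -0.61 in the tolerant male, -2.56 in the susceptible male, -0.03 in the normal male and -2.41 in the tolerant female. In bulk tissue, fewer cells of a type and less RNA per cell cannot be told apart.

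Immunoglobulin genes were higher as well and followed another order over the libraries. Igj, the joining chain of secreted antibodies, had 2 neighbouring loci on chromosome 14, 2.73-fold and 2.15-fold higher in the tolerant male, and the gamma heavy chain gene Ighg was 2.31-fold higher (FDR-corrected p = 0.0169) per the authors' deposited table. Relative to the susceptible male, the first Igj locus stood at a log2 level of 1.45 in the tolerant male, 3.52 in the tolerant female and 4.89 in the normal male. Ighg stood at 1.21 in the tolerant male, 2.54 in the tolerant female, 4.44 in the normal male and 1.99 in the normoxic male on the same scale. Of the libraries that could be placed, the susceptible male was the lowest for both genes and the tolerant male the next lowest. Immunoglobulin genes have near-identical copies, and the sharing of reads among them was not given in the sources used here. Ms4a1 and the second Igj locus alone had an FDR-corrected p no higher than 0.01 among these 6 loci per the authors' deposited table.

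The myeloid genes Ccr2 and Fcnb were higher in the tolerant male than in each other library that could be placed. Ccr2, the chemokine receptor that draws monocytes out of the marrow (chromosome 8, 128892769 to 128896907), was 5.17-fold higher (FDR-corrected p = 1.40e-10), and Fcnb, a ficolin of myeloid cells that starts complement, 5.19-fold higher (stored as 0) per the authors' deposited table. The log2 level of Ccr2 was 1.96 in the tolerant male and -0.41 in the susceptible male, with -0.01 in the normal male. For Fcnb it was 1.57 in the tolerant male and -0.81 in the susceptible male, with -1.11 in the normal male. In both genes the tolerant male was the single library of these 3 above normoxia, and the tolerant female could not be placed.

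Other genes of leukocyte surface receptors and signalling, grouped with Ccr2 after their values were seen, were higher too, so that the 9 spanned 2.05-fold to 5.17-fold, beside 54.8% higher among all listed genes, per the authors' deposited table. The values chose this group, and its direction is a description. Outside it, the neutrophil surface gene Cd177 was 2.01-fold lower and Rgs1 3.57-fold lower per the authors' deposited table. Pilra, an inhibitory receptor, was 3.12-fold (FDR-corrected p = 2.83e-06) and Ptprc, the common leukocyte antigen CD45, 2.64-fold higher (7.55e-07) per the authors' deposited table. Pilra stood at a log2 level of 2.13 in the tolerant male, against 0.49 in the susceptible male, with 1.12 in the normal male. Ptprc could be placed only against the normal male besides, where the tolerant and normal males lay at log2 levels of 1.40 and 1.22 over the susceptible male. Lilrb3l was 2.35-fold, Itga4, an integrin chain of leukocyte adhesion, 2.18-fold, Sla, an adaptor that dampens antigen receptor signalling, 2.15-fold, and the tetraspanin gene Cd53 2.05-fold higher per the authors' deposited table. Csf3r, the receptor for the granulocyte growth factor G-CSF, was 2.20-fold higher (FDR-corrected p = 0.0198) per the authors' deposited table.

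Granulocyte genes went both ways. Of 29 neutrophil symbols, 3 were higher and 2 lower in the tolerant male per the authors' deposited table, beside 54.8% and 45.2% among all listed genes. Stfa2, a stefin protease inhibitor of the neutrophil lineage, was 55.6-fold higher (FDR-corrected p = 0.00329), whereas Ngp, a granule protein of maturing neutrophils, was 5.81-fold lower (0.000186) and Cd177, a neutrophil surface protein, 2.01-fold lower (0.0291) per the authors' deposited table. Stfa2 had a log2 level of 2.95 in the tolerant male and -2.85 in the susceptible male. For Ngp the levels were 1.40 in the tolerant male and 3.93 in the susceptible male, with 1.12 in the normal male and -1.64 in the tolerant female. Prg2, the major basic protein of eosinophil granules, was 7.52-fold lower (FDR-corrected p = 0.0365) and Cpa3, a mast cell protease, 3.39-fold higher (0.0356) per the authors' deposited table. Prg2 ran in the same library order as Ngp, with log2 levels of 1.38 in the tolerant male, 4.29 in the susceptible male, 1.13 in the normal male and -1.17 in the tolerant female. Olfm4, another granule protein of neutrophils, was 5.44-fold lower in the tolerant male per the authors' deposited table. Its log2 levels were 0.20 in the tolerant male, 2.64 in the susceptible male, 0.50 in the normal male and -0.91 in the tolerant female, so the susceptible male was the highest library for Ngp, Prg2 and Olfm4 and the tolerant female the lowest. Klra17, of the natural killer cell receptor family, was 34.2-fold higher (FDR-corrected p = 0.0480) per the authors' deposited table, and belongs to a family with near-identical copies.

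All 5 listed members of the 30 interferon symbols were higher in the tolerant male, beside 54.8% higher among all listed genes, with a median log2 fold of 1.41 per the authors' deposited table. They were Slfn3, a schlafen family gene linked to growth arrest, at 2.86-fold (FDR-corrected p stored as 0), the antiviral GTPase genes Mx1 at 2.75-fold (1.64e-05) and Mx2 at 2.10-fold (0.00179), the GTPase gene Ifi47 at 2.66-fold (0.0322) and Irf7, the master factor of type I interferon production, at 2.20-fold (1.75e-05) per the authors' deposited table. Ifi47 had a log2 level of 0.05 in the tolerant male and -1.36 in the susceptible male, with 0.12 in the normal male. Mx2 was under normoxia in every exposed library, at -0.31 in the tolerant male, -1.37 in the susceptible male, -1.53 in the normal male and -1.56 in the tolerant female. For Slfn3 the log2 level was 0.65 in the tolerant male, -0.86 in the susceptible male, -1.24 in the normal male and -1.57 in the tolerant female. In these 3 genes the tolerant male stayed within 1 of normoxia on the log2 scale. So did the susceptible male for Slfn3 and the normal male for Ifi47. Mx1 and Irf7 could not be placed against normoxia.

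The 7 further interferon-inducible genes grouped after their values were seen were all higher in the tolerant male, by 2.08-fold to 4.27-fold, beside 54.8% higher among all listed genes, per the authors' deposited table. The values chose this group too, and its direction is a description. Ifi204, named Mnda in the RefSeq table, and Aim2, a sensor of cytosolic DNA, were 4.27-fold (FDR-corrected p = 0.0360) and 3.02-fold higher (0.0307), and Tlr7, a receptor for viral RNA, was 3.46-fold higher (0.0267) per the authors' deposited table. Samd9l, which restrains cytokine signalling, was 2.98-fold (8.03e-05), XAF1, a cell death gene, 2.81-fold (0.0247), and the partners of ADP-ribosylation and ubiquitin signalling Parp14 and Dtx3l 2.16-fold (2.64e-06) and 2.08-fold higher (0.0159) per the authors' deposited table. The letters GAAANNGAAA, a core of the interferon-stimulated response element, were searched on both strands and found in the promoters of Irf7, Parp14, Dtx3l and Xaf1, that is 4 of the 11 interferon-inducible members with a promoter entry (36.4%). They stood in 3.92% of all promoters in the table and in 2.17% of those of lower members. Among promoters of higher members, these 4 included, the share was 9.09%. Within the 30-symbol list itself, 1 of 4 promoters held the letters. The stretches of Irf7 and Parp14 upstream of the start are shown as examples, with the match in capitals:
Irf7 (chr1:205800068-205800107, minus strand): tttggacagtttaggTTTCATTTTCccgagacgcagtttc
Parp14 (chr11:78408043-78408082, plus strand): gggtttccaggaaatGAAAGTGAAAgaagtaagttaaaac
The Irf7 match reads on the opposite strand and the Parp14 match on the gene's own strand. Parp14 was grouped here after its value was seen, Irf7 is on the 30-symbol list, and the shares are a description.

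**Figure D3:**
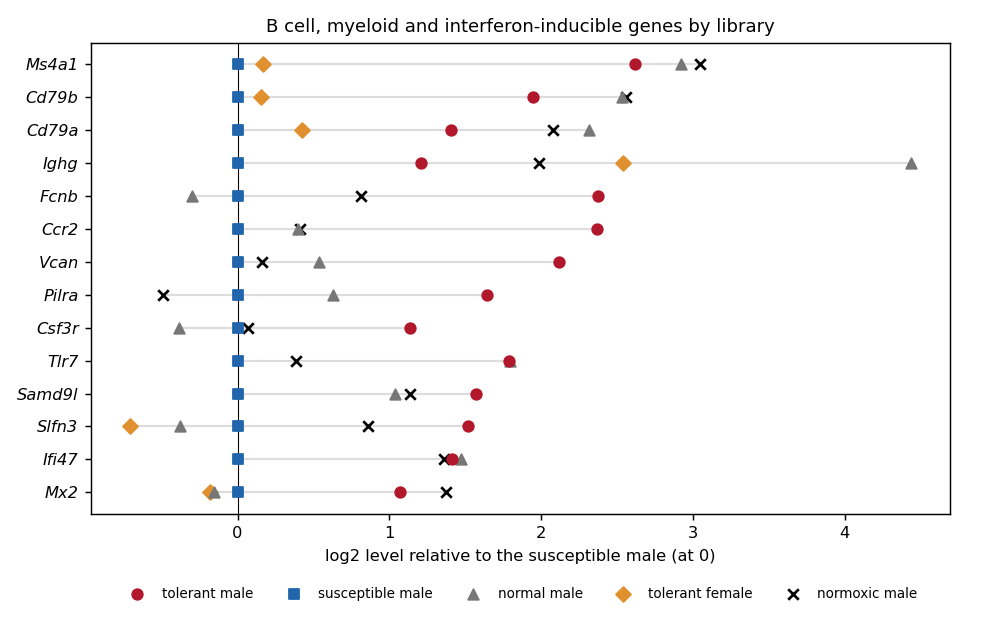
Log2 level relative to the susceptible male (horizontal axis, susceptible male at 0) of 14 B cell, myeloid and interferon-inducible genes (rows), with 1 point per library. The tolerant male lies between 1.07 and 2.62. For Ms4a1, Cd79b and Cd79a the normoxic and normal males lie further right, whereas for Fcnb, Ccr2, Vcan, Pilra and Csf3r the tolerant male is the rightmost point.

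Some members lay close to each other on a chromosome. Among members on the same chromosome, 22 pairs of adjacent members lay within 1 Mb of each other, of which 13 were higher in both genes, 6 lower in both and 3 opposite per the authors' deposited table. The pairs include the Igj loci, immunoglobulin heavy chain genes and families of near-identical copies. How many pairs other genes would give was not computed, so these counts are a description. Mx1 and Mx2 lay 86.3 kb apart on chromosome 11, Aim2 and Ifi204 91.4 kb apart on chromosome 13, and Dtx3l and Parp14 77.7 kb apart on chromosome 11, all higher per the authors' deposited table. Rgs2 and Rgs1, both lower, were 227 kb apart on chromosome 13 per the authors' deposited table. Genes RT1-T24-3, RT1-CE8 and RT1-CE2 of the rat major histocompatibility complex on chromosome 20 were 14.4-, 3.87- and 2.00-fold higher per the authors' deposited table. RT1-CE8 is a pseudogene in the RefSeq table, and these genes have near-identical copies, so their values are uncertain. The symbols LOC360504 and LOC287167, which the RefSeq table names by gene ID as the haemoglobin alpha genes Hba-a2 and Hba-a3, lay 11.4 kb apart on chromosome 10 and were 2.17-fold and 2.24-fold lower in the tolerant male per the authors' deposited table. None of the 18 haemoglobin and red cell symbols looked for stood there under its own name, and the alpha genes are near-identical copies.

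Heart muscle genes stood on the lower side. Myh6, which encodes the alpha myosin heavy chain of the heart (chromosome 15, 33044491 to 33068217), was 77.6-fold lower (FDR-corrected p stored as 0), Tnnt2, cardiac troponin T, 7.98-fold lower (9.61e-05), and Ankrd1, a stretch-responsive cardiac repeat protein, 2.53-fold lower (0.00222) in the tolerant male per the authors' deposited table. These were the 3 listed members of 33 sarcomere symbols, and none of 38 heart calcium and energy symbols or 13 skeletal muscle symbols was listed. The log2 level of Myh6 was -9.23 in the tolerant male and -2.95 in the susceptible male, with -3.06 in the normal male and -2.17 in the tolerant female. Tnnt2 stood at -5.54 in the tolerant male and -2.55 in the susceptible male, with -2.76 in the normal male and -2.03 in the tolerant female. All exposed libraries lay under the normoxic one for these genes. The tolerant male lay apart from the other 3 exposed libraries, which were within 1 of each other. The amount of heart-type muscle in each piece of lung was not measured, and its part in these folds was not tested.

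Fam111a, a protease gene linked to DNA replication and not a muscle gene, was also lowest in the tolerant male. It was 14.3-fold lower in the tolerant than in the susceptible male (FDR-corrected p stored as 0) per the authors' deposited table, at log2 levels of -5.40 in the tolerant male, -1.56 in the susceptible male, -1.40 in the normal male and -1.66 in the tolerant female. Aurkb, a kinase of mitosis, was 8.33-fold lower (FDR-corrected p = 5.66e-11) as the only listed member of 35 cell cycle symbols per the authors' deposited table. Its log2 level relative to the susceptible male was -3.06 in the tolerant male, 0.63 in the normal male and -0.86 in the tolerant female. Pdia5, a protein disulphide isomerase of the endoplasmic reticulum, was 14.9-fold lower (FDR-corrected p = 0.000293) and Hyou1, a chaperone of the same compartment, 2.06-fold lower (0.0247) per the authors' deposited table. Inmt, a lung methyltransferase of tryptamines, was 5.94-fold lower (3.88e-08) per the authors' deposited table, with a log2 level of -0.92 in the tolerant male and 1.65 in the susceptible male, beside 2.70 in the normal male and 1.50 in the tolerant female. The tolerant male was thus the only exposed library with Inmt below normoxia. Dlk1, a Notch-related protein of progenitor cells, was 8.88-fold lower (0.0199) per the authors' deposited table, and here the susceptible male, at 3.29, and the normal male, at 3.63, stood apart from the tolerant male, at 0.14, and the tolerant female, at -0.08.

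**Figure D4:**
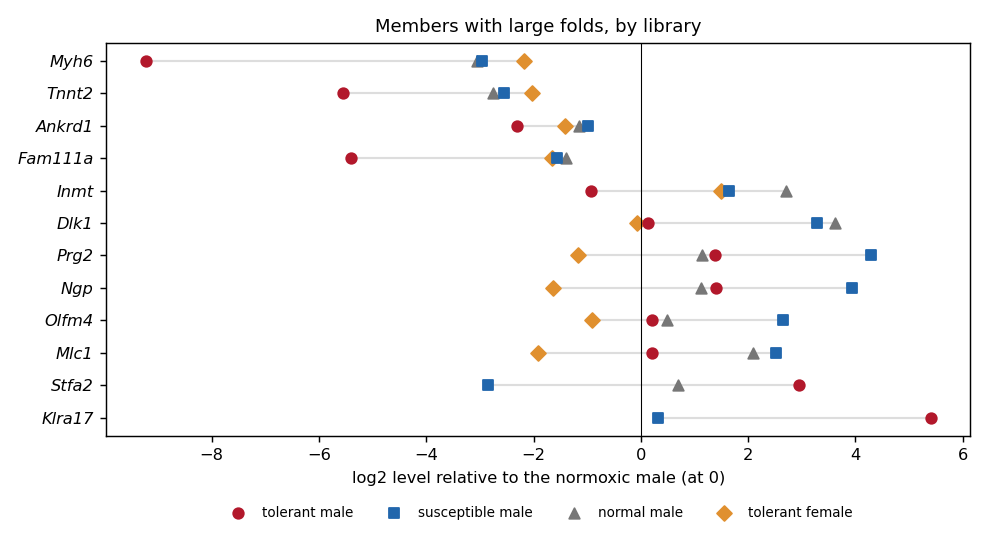
Log2 level relative to the normoxic male (horizontal axis, normoxic male at 0) of 12 members (rows), the 3 cardiac sarcomere genes and others with large folds, with 1 point per library. The tolerant male is the leftmost point for Myh6, Tnnt2, Ankrd1, Fam111a and Inmt, and the susceptible male the rightmost for Prg2, Ngp, Olfm4 and Mlc1.

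No finite fold could be given for Dsg3, a desmosomal cadherin of stratified epithelium (chromosome 18, 12253043 to 12292008). It was listed with 0 in the susceptible male (FDR-corrected p = 0.0143) per the authors' deposited table. Against the normoxic male it was 336-fold higher in the tolerant male (FDR-corrected p = 0.0099) per the authors' deposited tables. Relative to the normal male it was again listed with 0 in that reference, per the same tables. Read counts are unknown, so the size of the 336-fold difference carries no stated error. No other of the 16 squamous epithelium symbols was listed. Of the 19 predicted or unnamed symbols, the RefSeq table gave a name to 14, including the ribosomal protein pseudogene Rpl12a-ps1 at 52.0-fold higher and the MAP kinase pseudogene Mapk3-ps3 at 78.7-fold lower per the authors' deposited table. Reads of such copies may belong to their parent genes, so these values are uncertain.

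Genes of vessels and matrix lay on both sides, with 8 of 12 such genes, grouped after their values were seen, higher in the tolerant male and 4 lower, beside 54.8% and 45.2% among all listed genes, per the authors' deposited table. The count lies near those shares and is not a result about vessel genes. Vcan, the matrix proteoglycan versican, which monocytes also make, was 4.33-fold higher (FDR-corrected p = 4.15e-11), and Adamts9, a protease that cleaves it, 3.36-fold higher (stored as 0) per the authors' deposited table. Vcan had a log2 level of 1.95 in the tolerant male and -0.16 in the susceptible male, with 0.38 in the normal male. Adamts9 was above normoxia in all exposed libraries, at 2.67 in the tolerant male, 0.92 in the susceptible male, 2.49 in the normal male and 2.06 in the tolerant female, so that the susceptible male was the low one. Apln, the ligand of the apelin receptor and a vasodilator, was 2.07-fold higher (FDR-corrected p = 2.05e-09) per the authors' deposited table. Its log2 levels were 1.62 in the tolerant male, 0.58 in the susceptible male, 1.88 in the normal male and 1.80 in the tolerant female, with the susceptible male again the lowest exposed library. Sox7, an endothelial transcription factor, was 2.11-fold, the guidance cue genes Sema3d and Sema7a 2.92-fold and 2.49-fold, and Kitlg, the ligand of the receptor KIT, 2.54-fold higher per the authors' deposited table. On the other side stood Adamts1, a related protease, at 2.02-fold, Plvap, a component of endothelial pores, at 2.01-fold, the Notch ligand gene Jag2 at 2.01-fold and the proton-sensing receptor gene Gpr4 at 2.44-fold lower per the authors' deposited table. Apln was the sole listed member of 31 vasoactive symbols and Plvap of 24 endothelial symbols.

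Genes of lipid and drug metabolism gave single values. Scd1, the desaturase that makes monounsaturated fatty acids, was 2.63-fold higher in the tolerant male (FDR-corrected p stored as 0) per the authors' deposited table. For Scd1 the log2 level was 1.62 in the tolerant male and 0.23 in the susceptible male, with 1.74 in the normal male and 1.38 in the tolerant female, so the susceptible male was the one exposed library near normoxia. Of 35 xenobiotic and retinoid symbols, Cyp26b1, which degrades retinoic acid, was 2.44-fold higher (4.75e-11), and Fmo2, the main flavin monooxygenase of lung, 2.49-fold lower (stored as 0), beside Inmt, per the authors' deposited table. Cyp26b1 was the highest in the tolerant male, at a log2 level of 3.13, against 1.84 in the susceptible male, with 0.82 in the normal male and 0.28 in the tolerant female. Coq10b, needed for coenzyme Q function, was 2.44-fold and Ckmt1, the mitochondrial creatine kinase, 4.46-fold lower per the authors' deposited table.

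The genes were also counted by which animal lay close to normoxia. Of the 46 lower genes with a level for both animals, the tolerant male alone was within 1 of the normoxic male on the log2 scale in 27, the susceptible male alone in 10, both in 1 and neither in 8. Of the 37 higher genes, the tolerant male alone was within 1 in 9, the susceptible male alone in 20, both in 4 and neither in 4. Where all 5 libraries could be placed, the susceptible male was the highest library in 18 of 30 lower genes, beside the normal male in 4 and the normoxic male in 8. The tolerant male was the highest in 7 of 17 higher genes, beside the normal male in 6 and the normoxic male in 3 of those 17. The rule used both libraries, and a gene could be placed only if another table listed it, so these counts are a description. Every gene differed by at least 1 on the log2 scale between the animals, which limits how often both lie within 1. A lower gene also could not be highest in the tolerant male, nor a higher gene in the susceptible male. For 23 of the 135 genes no other table held a value at the same locus.

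A pair of exposed animals that shares no library with this comparison gives a second view of tolerant against less tolerant, the tolerant female over the normal male. That comparison listed 24 of the 135 genes, which is 17.8% of these genes and 4.04% of its own 594, per the authors' deposited tables. Among 8 genes that were higher in the tolerant than in the susceptible male, 3 were higher and 5 lower in the tolerant female relative to the normal male, and among 16 that were lower, 9 were higher and 7 lower, per the authors' deposited tables. Both directions thus occurred among the higher and among the lower genes, beside 35.5% higher among all genes that comparison listed. Fos and Il1a, lower in the tolerant than in the susceptible male, were 7.27-fold and 2.79-fold higher in the tolerant female than in the normal male, and Ms4a1, higher in the tolerant male, was 6.73-fold lower in that tolerant female, per the authors' deposited tables. Inmt was lower in both comparisons, by 5.94-fold in the tolerant over the susceptible male and by 2.30-fold in the tolerant female over the normal male, per the authors' deposited tables. Sex differs within that second pair, and its part cannot be told apart from tolerance.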

How the data were processed

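Total RNA of rat lung was made into Illumina TruSeq libraries, 1 for each of 5 groups, per the labels' protocols. The authors deposited 11 tables, each of a pair of libraries; 2 are identical copies, which left 9. Per the file headers, each row gives a proportional fold change, a signed ratio of proportions from which log2 values were taken, and an FDR-corrected p-value. The largest number double precision holds stands where a library was at 0, read from the values. Aligner, counting, test, depth and build were not given in the sources used here.

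Each symbol was counted per locus by its largest fold (Python 3.11.15, pandas 2.3.3). Levels relative to normoxia were chained from deposited log2 folds at the same locus; 29 of 29 sets of 3 tables matched within 0.001, and the chaining was tested on simulated data. No test was run, because each group is 1 library. The members and the 32 gene lists were chosen with earlier results of these data known. Genes named are the 20 largest finite folds with a proper symbol in each direction, those listed with 0 in 1 library and list members, 69 of 115 symbols; others were named after their values were seen. Of 135 rows, 102 matched the RefSeq table of GRCr8 as written, 17 by synonym and 8 by gene ID. Promoters came from 101 entries. Some members that are counted are not reported by name here. Alternatives were a stricter p-value or fold, every row, no predicted symbols, and folds derived through normoxia.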

Additional observations from a re-analysis of the deposited data

Results flagged for a closer look

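Cyp26b1 was 2.44-fold higher in the tolerant male but 2.95-fold lower in the tolerant female, each over the susceptible male, per the authors' deposited tables. Cyp2a3a, a cytochrome P450 gene of the airways with near-identical relatives, was 5.25-fold lower in the tolerant male but 2.50-fold higher in the tolerant female, each over the susceptible male, per the authors' deposited tables. They stand here because a tolerant animal of each sex, set against the same susceptible library, moved in opposite directions. The table of the tolerant female over the susceptible male listed 33 of the 135 genes, and these 2 were the ones whose direction differed. Both comparisons share the susceptible library, so nothing is read from the genes with the same direction. With 1 library a side, the difference was not tested.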

How the results depend on the processing

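Counting every deposited row left 74 higher and 61 lower genes, an FDR-corrected p of at most 0.01 left 50 and 49, and leaving out predicted symbols left 64 and 52. A fold of at least 4 left 13 higher and 20 lower, which turned the larger share to the lower side. By list, that fold left 2 of 10 immediate-early genes, 1 of 6 B and plasma cell loci, 0 of 5 interferon genes, 1 of 2 lower neutrophil genes, 1 of 2 lower xenobiotic and retinoid genes, and 0 of the 1 higher there. In the feedback and growth-arrest list it left 0 higher and 0 lower, and in the glucocorticoid list 0 higher and 0 lower. At a p of at most 0.01 the B and plasma cell list kept 2 of 6 loci and the lower neutrophil genes 1 of 2, while all 10 immediate-early genes and 3 sarcomere genes were kept. Those losses follow from the stricter limits themselves. For the 6 named genes listed in both tables against normoxia, the derived log2 fold matched the deposited one within 0.001. Ratios of the same proportions match in this way by arithmetic, so the match is no check of the processing. Depth is unknown, so the folds, including the large ones of Stfa2 and Klra17, carry no stated error. No paired analysis was possible because each group is 1 library and no result comes from a test.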
